A study of Homo sapiens with 18 samples.

Results

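The 9 genes described here encode the extracellular proteases of the plasminogen and metalloprotease systems and their tissue inhibitors: PLAU, PLAUR, PLAT, ADAMTS1, MMP1, MMP14, TIMP1, TIMP2 and TIMP3. They were taken from the table of raw read counts by NCBI Gene ID, 9 of 28395 Gene IDs, and all 9 were found. PC-3, a human prostate cancer line, was detached, brought into suspension and either pushed through a syringe with a fine needle, which applies brief fluid shear stress, or left static. Both were then kept in poly-HEMA-coated wells, which prevent attachment, in DMEM containing insulin-transferrin-selenium and bovine serum albumin, and were sampled at 3 h, 12 h or 24 h. The 6 groups, static and sheared at each time, held 3 libraries each, 18 in all, made from cytosolic RNA. All groups, controls included, were therefore detached and unattached. Each sheared library had a static partner of the same replicate number and time, made from the same starting pool, and the pools of different times were independent. The 3 h libraries carried another batch date than the 12 h and 24 h libraries, so time and batch date cannot be told apart between 3 h and the later times. All cells were 1 established line grown without stroma, and the RNA says nothing of secreted or active protein.

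Urokinase (PLAU) and tissue plasminogen activator (PLAT) cut plasminogen to plasmin, and the urokinase receptor PLAUR holds urokinase at the cell surface. Plasmin breaks down fibrin and can activate some matrix metalloproteases, secreted or membrane-bound zinc enzymes that cut collagen and other matrix proteins and are held in check by the TIMP proteins. In prostate and other carcinomas these systems are studied for their part in invasion and in the release of growth factors from the matrix.

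Libraries held 16400487 to 25862360 counts, of which the 9 genes took 0.108% to 0.278%. Markers of PC-3 and other epithelial cells, called epithelial below, were high in all libraries (summed level 3312 to 10066 CPM, counts scaled to a common library size with TMM factors). Their list held KRT8, KRT18, KRT19, EPCAM and CDH1, and also the mesenchymal marker VIM (48.8 to 734 CPM). The prostate markers KLK2 and KLK3 had at most 1 count in any library, whereas TMPRSS2 was present. Sheared replicate 3 at 24 h stood apart, with the lowest TMM factor (0.721), the fewest genes detected (17007) and 28.2% of its counts in its 100 most abundant genes. Marker lists whose summed level did not overlap between the groups compared are given beside the results. Each list is named after the cells that its genes mark, while all cells here were of 1 line. In these bulk libraries, fewer cells with a transcript and less of it per cell cannot be told apart.

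Per kilobase of exon, urokinase was the most abundant of the 9 transcripts, with a mean of 263 CPM per kb over the 18 libraries (range 93.8 to 640). TIMP1 followed at 158 CPM per kb (77.6 to 383) and TIMP2 at 63.8 (51.7 to 87.8). MMP14, PLAT and PLAUR were at 27.0, 25.1 and 20.9 CPM per kb, and their ranges over libraries overlapped (12.7 to 62.5, 10.8 to 51.7 and 7.25 to 69.8). MMP1 and ADAMTS1 were lower, at 4.45 and 3.42 CPM per kb, again with overlapping ranges (1.59 to 9.72 and 1.57 to 8.62). TIMP3 was close to absent. The urokinase range also overlapped that of TIMP1, and that of TIMP2 the ranges of TIMP1, MMP14 and PLAUR.

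**Figure D1:**
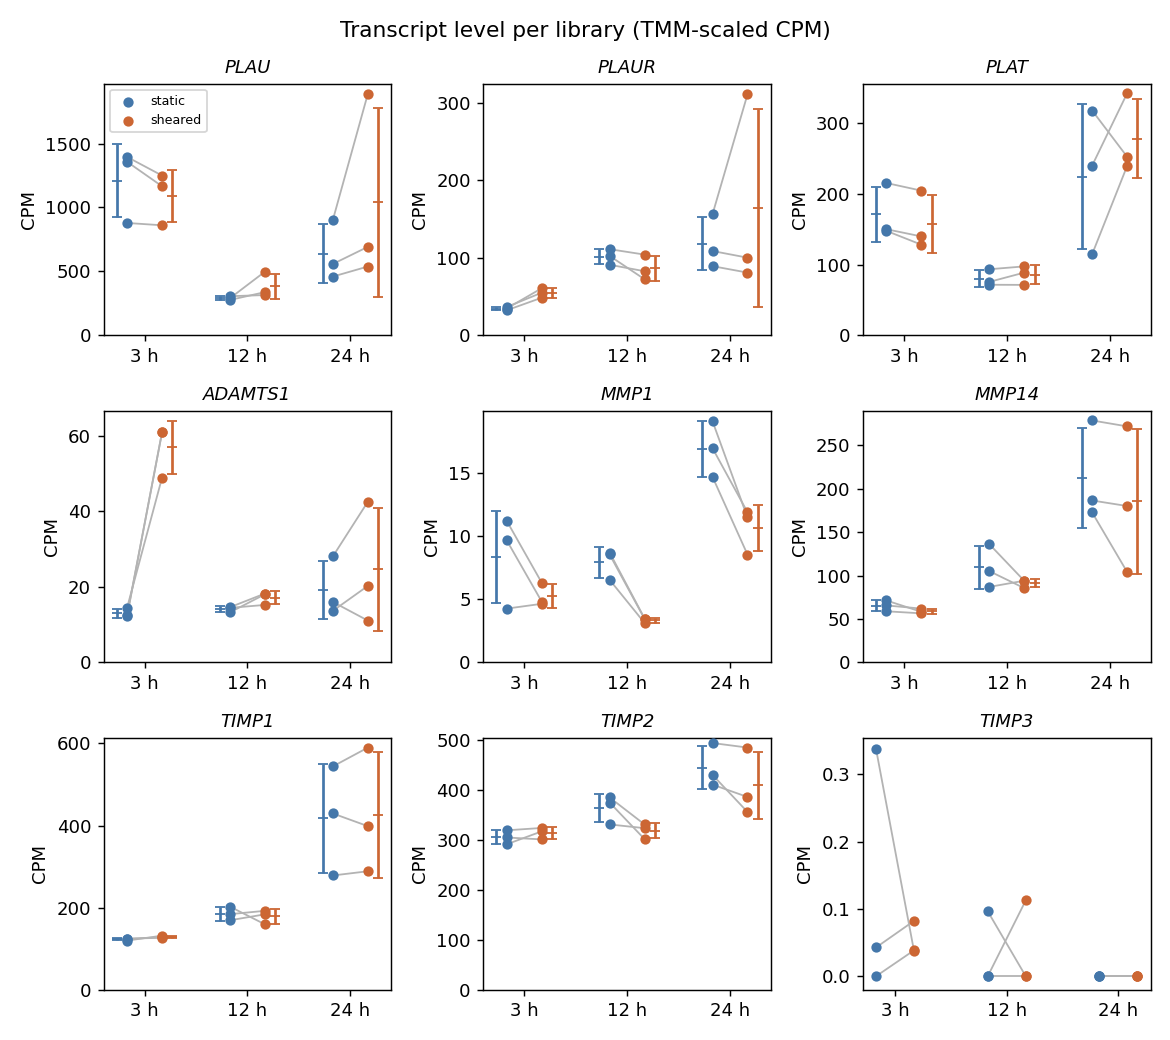
Level of each of the 9 transcripts in every library, in TMM-scaled CPM on a linear axis (TIMP3 down to 0), by time after exposure. Blue points are static and orange points sheared libraries, grey lines join the 2 libraries of 1 pool, and the bars beside the points give the mean ± SD of 3 libraries (none for TIMP3). ADAMTS1 at 3 h lies at 48.9 to 60.9 CPM in sheared against 12.3 to 14.4 CPM in static cells, MMP1 is lower in sheared cells at 12 h and 24 h, and the highest PLAU and PLAUR values at 24 h are those of sheared replicate 3.

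Of these genes, ADAMTS1, MMP1 and PLAU were called changed with shear at 1 time or more. A member that was not called may still have changed. A gene is called changed where its adjusted p was below 0.05 in edgeR's quasi-likelihood test over all 15189 genes that passed the filter on low counts. That filter passed 8 of the 9 members, all but TIMP3. At 3 h 1 of the 8 was called (ADAMTS1, higher), against 1.46% of all genes tested. At 12 h 1 was called (MMP1, lower), against 10.8% of all genes. At 24 h 2 were called (PLAU higher, MMP1 lower), against 17.2% of all genes. The median log2 fold change of the 8 members, sheared over static, was -0.04 at 3 h, -0.12 at 12 h and 0.13 at 24 h, beside 0.0054, -0.0079 and -0.021 over all genes tested. Groups of 3 libraries did not overlap for 3 of the 8 members at 3 h, 4 at 12 h and 1 at 24 h, where 18.8%, 29.0% and 15.1% of all genes tested did not overlap.

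**Figure D2:**
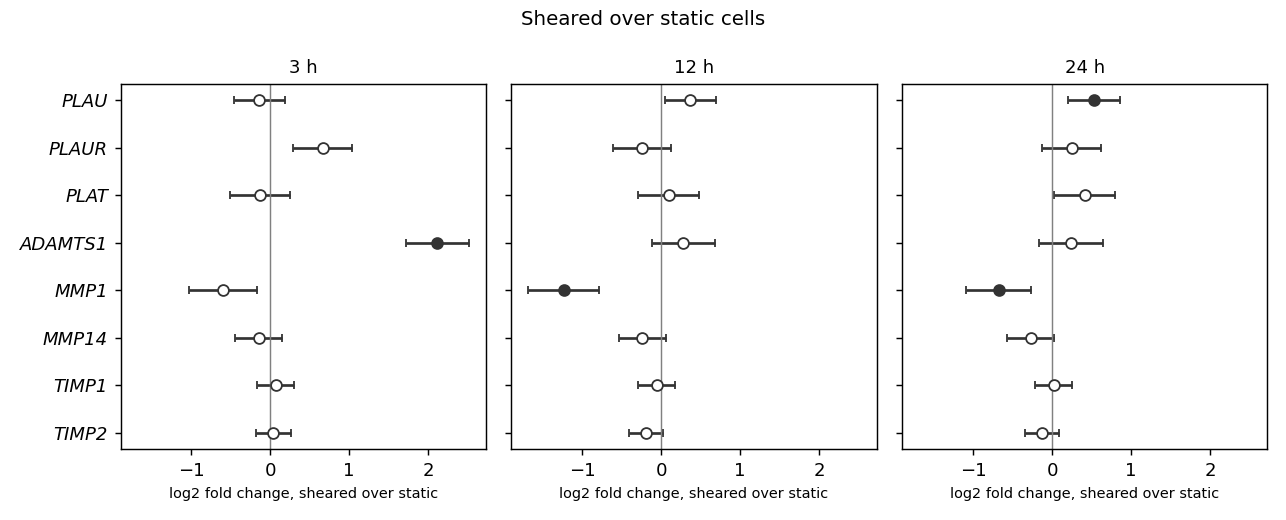
Shear effect for the 8 tested genes at 3 h, 12 h and 24 h, as the log2 fold change of sheared over static cells with its 95% confidence interval (edgeR, n = 3 pools per time). Filled points have an adjusted p below 0.05: ADAMTS1 at 3 h, MMP1 at 12 h, and PLAU and MMP1 at 24 h.

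Of the plasminogen activators, urokinase had the highest level. At 3 h PLAU was at 1357, 1395 and 878.8 CPM in static and 1166, 1250 and 860.6 CPM in sheared replicates 1, 2 and 3. All 3 pairs were lower after shear, but the groups overlapped. The log2 fold change of -0.14 ± 0.15 was not called by edgeR (adjusted p = 0.888). For shear effects and their differences, ± gives the SE of the fit to all 18 libraries, not the spread of the 3 pairs. At 12 h it was at 305.9, 276.7 and 290.2 CPM in static and 314.9, 337.8 and 497.9 CPM in sheared cells. Here every sheared library was above every static one, with replicate 3 the farthest, and the log2 fold change was 0.37 ± 0.15 (edgeR adjusted p = 0.136). That value passed the threshold with no filter on low counts (0.38, adjusted p = 0.0169) and without the 24 h pair 3 (0.37, adjusted p = 0.0267), which shares the estimate of spread.

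At 24 h PLAU reached 459.4, 557.9 and 902.2 CPM in static and 538.1, 692.1 and 1888 CPM in sheared cells. Each sheared library was above the static library of its pool, though the groups overlapped because the pools differed in level. The transcript rose 1.45-fold, a log2 fold change of 0.53 ± 0.15 (edgeR adjusted p = 0.0253), from log2 differences of 0.23, 0.31 and 1.07 in the 3 pairs. The library with the highest level was sheared replicate 3, the one that stood apart, and without its pair the log2 fold change was 0.29 (adjusted p = 0.218). The call was also lost with no replicate block (0.70, adjusted p = 0.274), with scaling by total counts only (0.37, adjusted p = 0.0861) and with the 24 h libraries alone (0.54, adjusted p = 0.102). In the authors' deposited table the log2 fold change of PLAU at 24 h was 0.66 with an adjusted p of 0.384. Summed nuclear-retained RNAs, a sign of how clean the cytosol was, at 24 h spanned 91.3 to 166 CPM in the static and 50.9 to 477 CPM in the sheared libraries. The value of 477 CPM was that of sheared replicate 3, the library with the highest PLAU level. Fibroblast markers were lower in sheared cells at that time, with values given beside MMP1. The part of either in the result was not tested.

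The gene PLAU lies at chr10:73909177-73917497 on the + strand (GRCh38, GENCODE 29). It shares 916 bases of exon with C10orf55 on the opposite strand, a gene at 2.12 to 5.27 CPM. The strand setting of the authors' counting is not given in the sources used here, so reads of the 2 genes in that stretch may not be told apart.

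The urokinase receptor, PLAUR, was not called at any time, and its largest difference was at 3 h. It was at 36.58, 34.61 and 32.32 CPM in static and 55.01, 60.76 and 48.52 CPM in sheared cells at 3 h. The 3 sheared libraries were above all static ones, with log2 differences of 0.59, 0.81 and 0.58 in the pairs. The log2 fold change of 0.66 ± 0.18 nevertheless missed the threshold over all genes (edgeR adjusted p = 0.0975). It passed with the 3 h libraries alone (0.65, adjusted p = 5.61e-06), with DESeq2 (0.66, adjusted p = 0.0215), with no filter on low counts (0.67, adjusted p = 7.00e-05), without the 24 h pair 3 (0.67, adjusted p = 3.87e-04) and without the 24 h pair 2 (0.66, adjusted p = 0.0499). It fell short of the threshold under the other 11 of 16 alternatives. With the 3 h libraries alone 10.1% of all genes were called, against 1.46% in the main fit. In the authors' deposited table the log2 fold change of PLAUR at 3 h was 0.67 with an adjusted p of 0.856.

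At 12 h PLAUR was at 111.2, 91.08 and 102.5 CPM in static and 104.2, 82.73 and 72.33 CPM in sheared cells, lower in all 3 pairs but with overlapping groups. The log2 fold change was -0.24 ± 0.17 (edgeR adjusted p = 0.399). At 24 h the values were 89.27, 108.8 and 156.2 CPM in static and 80.95, 100.2 and 310.9 CPM in sheared cells. Only sheared replicate 3 was above its static partner there, and the log2 fold change of 0.25 (edgeR adjusted p = 0.360) became -0.11 without that pair. In static cells PLAUR was at 32.3 to 36.6 CPM at 3 h and at 89.3 to 156 CPM at the later times, a step that falls together with the change of batch date.

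The gene PLAUR lies at chr19:43646095-43670547 on the - strand. Promoter sequence from RefSeq (GRCh38.p14, 250 bases before to 50 after the start) was at hand for 5 of the 9 members, PLAU, PLAUR, MMP14, TIMP1 and TIMP3. These were searched on both strands for TGANTCA (AP-1), TGACGTCA (CRE/ATF), GGGCGG (GC box) and GGAATG (TEAD). PLAUR was the only one of the 5 with an AP-1 match, which 7.71% of 35116 promoters hold. It begins 186 bases before the RefSeq start, in the stretch chr19:43670338-43670367 (- strand), shown for that match with the AP-1 letters in capitals.
PLAUR: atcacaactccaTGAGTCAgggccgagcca
None of the 5 held the CRE/ATF or the TEAD letters, which 1.85% and 14.0% of all promoters hold. A match or its lack describes these letters in this window and no more.

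The second activator, PLAT, was not called at any time. At 3 h it was at 150.2, 147.8 and 215.5 CPM in static and 139.9, 128.3 and 204.7 CPM in sheared cells, and at 12 h at 71.56, 93.49 and 75.6 against 71.36, 97.53 and 88.75 CPM. The groups overlapped at both times, with log2 fold changes of -0.13 ± 0.18 and 0.097 ± 0.18 (edgeR adjusted p = 0.919 and 0.778). At 24 h the values were 114.8, 240.2 and 318.1 CPM in static and 239.7, 342.4 and 252.7 CPM in sheared cells. Pairs 1 and 2 were higher after shear and pair 3 lower (log2 differences of 1.06, 0.51 and -0.33), giving 0.41 ± 0.18 (edgeR adjusted p = 0.131). Without pair 3 the log2 fold change was 0.80 (adjusted p = 2.42e-04), and with no filter on low counts it was 0.41 (adjusted p = 0.0155). Pair 3 at 24 h was thus the pair in which PLAU and PLAUR differed most upwards and PLAT differed downwards.

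Among the metalloproteases, ADAMTS1, a secreted protease that cuts proteoglycans such as versican and aggrecan, was the member called at 3 h, with the largest fold change of the 8. At 3 h ADAMTS1 was at 12.26, 12.52 and 14.45 CPM in static and 60.88, 60.84 and 48.87 CPM in sheared cells. All sheared libraries were far above all static ones, and replicate 3 had the smallest step because its static value was the highest and its sheared value the lowest. The transcript rose 4.33-fold, a log2 fold change of 2.12 ± 0.19 with a 95% confidence interval of 1.72 to 2.52 (edgeR adjusted p = 6.83e-06). It stayed past the threshold under all 16 alternative settings, from 2.01 to 2.30. In the authors' deposited table it was 2.15 with an adjusted p of 7.13e-09. Summed fibroblast markers, mostly COL1A1, were also higher in sheared cells at 3 h (32.1 to 37.9 against 19.6 to 22.2 CPM), as were epithelial markers (3861 to 3916 against 3312 to 3669 CPM). Of the 7 fibroblast genes 5 were tested, among them LUM, PDGFRA and COL3A1 with up to 95, 68 and 44 counts in a library, while DCN and PDGFRB had at most 5 and 8. The part of these markers in the result was not tested.

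By 12 h the ADAMTS1 level in sheared cells was close to that of static cells: 18.23, 18.04 and 15.22 CPM against 14.61, 13.26 and 14.45 CPM. Every sheared library was still above every static one, by a log2 fold change of 0.28 ± 0.19 that was not called (edgeR adjusted p = 0.374). At 24 h it was at 13.65, 16.01 and 28.05 CPM in static and 20.25, 11.09 and 42.51 CPM in sheared cells. The groups overlapped and pair 2 went the other way, with a log2 fold change of 0.24 ± 0.19 (edgeR adjusted p = 0.430) that became 0.58 (adjusted p = 0.0242) without pair 2. The shear effect itself was smaller at 12 h than at 3 h by 1.84 ± 0.27 on the log2 scale (edgeR adjusted p = 0.00168), and at 24 h than at 3 h by 1.88 ± 0.27 (edgeR adjusted p = 2.45e-04). With no replicate block the adjusted p of these 2 differences was 0.163 and 0.0524. The gene lies at chr21:26835747-26845409 on the - strand.

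Interstitial collagenase (MMP1), which cuts fibrillar collagen, went the opposite way at the later times. At 3 h MMP1 was at 9.693, 11.24 and 4.275 CPM in static and 4.832, 6.335 and 4.656 CPM in sheared cells. Pairs 1 and 2 were lower after shear and pair 3 slightly higher, since static replicate 3 was already low. The log2 fold change of -0.59 ± 0.20 was not called (edgeR adjusted p = 0.247), though it was with the 3 h libraries alone (-0.61, adjusted p = 0.0490).

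At 12 h MMP1 was at 8.723, 6.558 and 8.571 CPM in static and 3.489, 3.135 and 3.458 CPM in sheared cells. The 3 sheared libraries lay close together and below every static library. The transcript fell 2.35-fold, a log2 fold change of -1.23 ± 0.21 with a 95% confidence interval of -1.68 to -0.78 (edgeR adjusted p = 0.00184), and was called under all 16 alternative settings. In the authors' deposited table it was -1.25 with an adjusted p of 0.00183. Summed endothelial markers, mostly PECAM1, were lower in sheared cells at 12 h as well (40.4 to 56.0 against 66.0 to 85.7 CPM), as were fibroblast markers (25.3 to 29.2 against 34.9 to 41.6 CPM). Of the 5 endothelial genes 2 were tested, PECAM1 and KDR, the second with up to 93 counts in a library, while VWF, CDH5 and TEK had at most 4, 6 and 5. The part of these markers in the result was not tested.

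At 24 h MMP1 was at 14.73, 17.01 and 19.14 CPM in static and 8.564, 11.92 and 11.51 CPM in sheared cells. The groups again did not overlap, and the transcript fell 1.60-fold, a log2 fold change of -0.67 ± 0.20 (edgeR adjusted p = 0.0254). The call was lost with no replicate block (-0.67, adjusted p = 0.148), with the 24 h libraries alone (-0.67, adjusted p = 0.0867), without the 24 h pair 1 (-0.62, adjusted p = 0.102) or without the 24 h pair 3 (-0.62, adjusted p = 0.0942). In the authors' deposited table it was -0.66 with an adjusted p of 0.128. Summed fibroblast markers were again lower in sheared cells at 24 h (23.1 to 32.8 against 33.6 to 38.3 CPM), and their part in the result was not tested. Counts of MMP1 ran from 62 to 374 per library, and its standard errors were the widest of the 8 at each time. The gene lies at chr11:102789920-102798160 on the - strand, where 150 bases of its exons are shared with WTAPP1 on the opposite strand, a pseudogene with at most 11 counts.

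The membrane-type protease MMP14, a collagenase of the cell surface and activator of pro-MMP2, did not pass the threshold at any time. It was at 65.74, 71.44 and 58.99 CPM in static and 62.07, 58.37 and 56.61 CPM in sheared cells at 3 h, and at 105.3, 87.08 and 136.4 against 85.66, 94.21 and 94.08 CPM at 12 h. At 24 h the values were 186.6, 172.8 and 278.8 CPM in static and 180.2, 104.3 and 272 CPM in sheared cells, where replicate 2 alone fell clearly short of its partner. The log2 fold changes were -0.14, -0.24 and -0.27 (edgeR adjusted p = 0.867, 0.295 and 0.204), with 95% confidence intervals of -0.44 to 0.15, -0.54 to 0.057 and -0.57 to 0.028. With scaling by total counts only the values at 12 h and 24 h were -0.39 and -0.43 (adjusted p = 0.0475 and 0.0209), a scaling that also moved the median of all genes by -0.15 and -0.16.

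The inhibitors TIMP1 and TIMP2 were not called in sheared against static cells at any time. TIMP1, a secreted inhibitor of most matrix metalloproteases, was at 123.9, 124.2 and 119.6 CPM in static and 127.7, 126.6 and 131.6 CPM in sheared cells at 3 h. The sheared libraries were all above the static ones, but by a log2 fold change of 0.070 only. It was at 184, 169.1 and 202.3 against 192.1, 183.6 and 159.2 CPM at 12 h, and at 278.3, 429.5 and 544.1 against 288.6, 398.5 and 589.9 CPM at 24 h. The log2 fold changes at those times were -0.055 and 0.020, with overlapping groups. The 95% confidence intervals of the 3 shear effects, -0.16 to 0.30, -0.29 to 0.18 and -0.21 to 0.25, bound the changes that these libraries allow (edgeR adjusted p = 0.925, 0.800 and 0.926).

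TIMP2, which inhibits metalloproteases and also takes part in the activation of pro-MMP2 by MMP14, was at 305.1, 319.5 and 291.5 CPM in static and 301.3, 324.2 and 317.4 CPM in sheared cells at 3 h. At 12 h it was at 385.3, 331.3 and 375.2 against 331.2, 323.8 and 301.8 CPM, so that all sheared libraries were just below all static ones. At 24 h it was at 411.1, 430.6 and 494.5 against 386.3, 356.3 and 485.4 CPM, lower in all 3 pairs with overlapping groups. The log2 fold changes were 0.042, -0.19 and -0.13 (edgeR adjusted p = 0.958, 0.260 and 0.419). With scaling by total counts only the later values were -0.34 and -0.29 (adjusted p = 0.0181 and 0.0245).

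TIMP3, an inhibitor that binds the matrix, was detected at trace level. It had 17 reads in all 18 libraries together, of which 8 were in static replicate 1 at 3 h, and 11 libraries had 0. A count of 0 allows up to 3 counts, or 0.128 to 0.230 CPM in the 11 libraries at 0 (counting error only). No fold change is given, since no difference was detectable at this depth. The gene lies within SYN3, which is on the opposite strand and had up to 79 counts in a library.

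Promoter sequences of 3 members are shown to set the transcript at trace level, TIMP3, beside 2 expressed genes, MMP14 and TIMP1. Each stretch lies upstream of the annotated exons, on the + strand, with matches to the GC box on either strand in capitals. They are chr14:22836335-22836556 for MMP14, chrX:47582186-47582312 for TIMP1 and chr22:32801455-32801700 for TIMP3.
MMP14: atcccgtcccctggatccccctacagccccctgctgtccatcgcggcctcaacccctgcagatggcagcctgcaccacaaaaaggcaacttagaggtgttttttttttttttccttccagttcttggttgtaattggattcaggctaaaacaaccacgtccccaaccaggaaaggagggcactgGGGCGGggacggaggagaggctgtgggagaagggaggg
TIMP1: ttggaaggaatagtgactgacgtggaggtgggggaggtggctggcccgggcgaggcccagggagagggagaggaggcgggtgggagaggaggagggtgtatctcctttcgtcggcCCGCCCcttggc
TIMP3: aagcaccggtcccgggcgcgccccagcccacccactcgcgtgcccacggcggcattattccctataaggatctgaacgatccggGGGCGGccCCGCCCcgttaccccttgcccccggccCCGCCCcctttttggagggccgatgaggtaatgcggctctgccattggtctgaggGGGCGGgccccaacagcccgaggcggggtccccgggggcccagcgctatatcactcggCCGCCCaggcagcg
In the whole windows TIMP3 held 5 GC boxes, PLAU 3, TIMP1 2, MMP14 1 and PLAUR 0, and 45.0% of all promoters hold at least 1. The gene at trace level had the most matches of the 5.

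Differences between the shear effects of 2 times were called for 1 of the 8 members between 12 h and 3 h (ADAMTS1, against 1.41% of all genes) and for 1 between 24 h and 3 h (ADAMTS1, against 5.89%). Between 24 h and 12 h 0 were called by edgeR, against 0.665% of all genes, and 0 by DESeq2, against 1.25%. An unadjusted p below 0.05 was reached by 0 of the 8, against 1256 of all 15189 genes tested. For PLAUR the shear effect at 12 h minus that at 3 h was -0.91 ± 0.25 (edgeR adjusted p = 0.0922). It passed with DESeq2 (-0.91, adjusted p = 0.0229), with no filter on low counts (-0.91, adjusted p = 1.84e-04), with scaling by total counts only (-1.01, adjusted p = 0.0223) and without the 24 h pair 3 (-0.91, adjusted p = 7.22e-04). It fell short under the other 11 of 15 alternatives. For PLAU the effect at 24 h minus that at 3 h was 0.67 ± 0.22 (edgeR adjusted p = 0.0848). For MMP1 none of the 3 differences between times was called (-0.64, 0.56 and -0.080 for 12 h minus 3 h, 24 h minus 12 h and 24 h minus 3 h).

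Time in suspension was read between 12 h and 24 h, which share a batch date. In static cells 5 of the 8 members rose and 0 fell, against 16.9% of all genes tested that rose and 32.5% called in either direction. PLAT rose 2.78-fold (log2 fold change 1.47 ± 0.33, edgeR adjusted p = 0.00850), TIMP1 2.24-fold (1.16 ± 0.18, adjusted p = 1.72e-04) and PLAU 2.18-fold (1.13 ± 0.22, adjusted p = 0.00184). MMP1 rose 2.12-fold (1.08 ± 0.26, edgeR adjusted p = 0.00538) and MMP14 1.93-fold (0.95 ± 0.18, adjusted p = 0.00111). These 5 were called under all 15 alternative settings. Both activators, both collagenases and 1 inhibitor thus rose together, while PLAUR, ADAMTS1 and TIMP2 were not called (0.21, 0.44 and 0.28, edgeR adjusted p = 0.354, 0.122 and 0.0821). The median log2 fold change of the 8 members was 1.02, beside 0.0059 over all genes. Over the same interval in static cells 2 marker lists were higher at 24 h without overlap, the epithelial (6126 to 8912 against 4500 to 4778 CPM) and the prostate list, mostly TMPRSS2 (59.2 to 95.8 against 35.9 to 45.3 CPM). Their part in the result was not tested.

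In sheared cells 3 of the 8 rose from 12 h to 24 h and 0 fell, against 1.75% of all genes tested that rose and 2.55% called in either direction. PLAT rose by 1.68 ± 0.22 on the log2 scale (edgeR adjusted p = 0.00812), MMP1 by 1.65 ± 0.24 (adjusted p = 0.0117) and TIMP1 by 1.25 ± 0.23 (adjusted p = 0.0224). PLAU (1.43), MMP14 (1.02) and PLAUR (0.92) were not called (edgeR adjusted p = 0.0733, 0.0680 and 0.213). The count moved with single libraries. It was 0 without any 1 of the 3 sheared 12 h libraries, where calls over all genes went from 374 to 8, 0 and 8, and 5 without sheared replicate 2 at 24 h, where 1354 of all genes were called. Without sheared replicates 1, 2 and 3 at 12 h the log2 fold change was 1.56, 1.79 and 1.70 for PLAT, 1.68, 1.61 and 1.67 for MMP1, and 1.30, 1.27 and 1.17 for TIMP1. A lower count in sheared than in static cells is not shown to be a difference between them. The test of that, the shear effect at 24 h minus that at 12 h, called 0 members as given above. Over the same interval in sheared cells 3 marker lists were higher at 24 h without overlap, the epithelial (6191 to 10066 against 3792 to 5015 CPM), the endothelial (60.0 to 86.1 against 40.4 to 56.0 CPM) and the prostate list (52.6 to 80.9 against 39.1 to 51.2 CPM). Their part in the result was not tested.

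**Figure D3:**
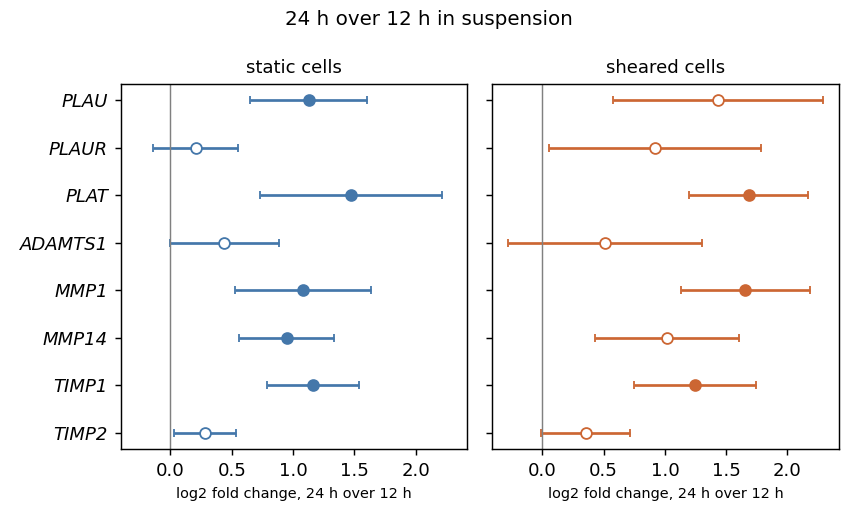
Change from 12 h to 24 h in suspension for the 8 tested genes, as the log2 fold change with its 95% confidence interval, in static cells (blue, left) and sheared cells (orange, right), 3 libraries per group (edgeR). Filled points have an adjusted p below 0.05, 5 in static and 3 in sheared cells, and all 16 point estimates lie above 0.

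Genes whose 9 sheared minus static differences, 1 per pool, followed those of a called member most closely were found among 12415 genes by Pearson's correlation, given as a description. The 9 pools fall into 3 times, so a high value can come with a shear effect at the same time. The genes named were picked as the 3 highest of 12415 over only 9 pools, so high values are also to be had by that choice. Neither was tested. For ADAMTS1 they were DENND3 (0.976), NR4A2 (0.975) and ST3GAL1 (0.975). For MMP1 they were DCUN1D3 (0.908), MGST3 (0.907) and MFSD11 (0.881). For PLAU they were ACTR3B (0.928), HUS1 (0.923) and ACOT9 (0.916).

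The wider protease system was read from 5 lists of 78 other genes, of which 54 were tested. At 3 h 0 of these were called by edgeR, against 1.46% of all genes, and 1 by DESeq2, against 2%. An unadjusted p below 0.05 was reached by 5 of the 54, against 1396 of all 15189 genes tested. At 12 h 2 rose and 4 fell, 11.1% of the 54 against 10.8% of all genes, and at 24 h 5 rose and 5 fell, 18.5% against 17.2%. The shares were thus near the background at both times, and the genes are described one by one. With no replicate block the counts were 0 at 12 h and 4 at 24 h, where 2.11% and 6.01% of all genes were called. With a pair left out they ran from 1 to 8 at 12 h and from 5 to 10 at 24 h. With scaling by total counts only 1 rose and 6 fell at 12 h, and 5 rose and 10 fell at 24 h.

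In the plasminogen list (17 of 20 tested), the 2 chains of the annexin A2 complex, a plasminogen-binding site of the cell surface, were called at both times. S100A10 rose from 606 to 758 CPM in static to 987 to 1008 CPM in sheared cells at 12 h (log2 fold change 0.53, edgeR adjusted p = 0.00538) and by 0.49 at 24 h (adjusted p = 0.00456). ANXA2 rose by 0.50 at 12 h (edgeR adjusted p = 0.0454) and 0.70 at 24 h (adjusted p = 0.00492). ANXA2 has processed pseudogenes, so its counts are uncertain. Its call at 12 h was lost under 9 of 16 alternatives and that at 24 h under 1 of 16. The S100A10 calls were lost under 2 of 16 alternatives at each of these times. SERPINB2, the plasminogen activator inhibitor PAI-2, rose by 0.95 at 24 h (edgeR adjusted p = 0.00552) at a low level, 2.80 to 13.2 CPM in sheared against 2.34 to 6.23 CPM in static cells, a call lost under 3 of 16 alternatives. SERPINB8, an inhibitor of furin, fell by 0.77 at 12 h (edgeR adjusted p = 0.00653) and by 0.78 at 24 h (adjusted p = 0.00354). Those calls were lost under 3 and 1 of 16 alternatives. SERPINE2, protease nexin-1, fell by 0.49 at 24 h (edgeR adjusted p = 0.0123), a call lost under 2 of 16 alternatives. SERPINE2 is named beyond the rule, after its value was seen.

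Of the 13 other matrix metalloproteases tested (21 listed), MMP16 alone was called, with a fall of 0.72 at 24 h (edgeR adjusted p = 0.0254; 2.56 to 4.21 CPM in sheared against 4.56 to 6.23 CPM in static cells). That call was lost under 5 of 16 alternatives. Of the 9 other ADAMTS genes tested (18 listed), ADAMTS20 fell by 1.53 at 12 h (edgeR adjusted p = 0.0470) and ADAMTS14 rose by 2.24 at 24 h (adjusted p = 0.0247). Neither passed 2.42 CPM in any library, and neither was called at 3 h, when ADAMTS1 rose. The call of ADAMTS20 was lost under 7 of 16 alternatives, with -0.996 (adjusted p = 0.400) without the 12 h pair 2, and that of ADAMTS14 under 2 of 15. Of the 7 membrane ADAM proteases tested (9 listed), ADAM17, the sheddase of TNF and EGF receptor ligands, fell by 0.38 at 12 h and 0.39 at 24 h (edgeR adjusted p = 0.0488 and 0.0353). Those 2 calls were lost under 10 and 8 of 16 alternatives. ADAM12 fell by 0.75 at 12 h (edgeR adjusted p = 0.00566), a call lost under 2 of 16 alternatives.

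Of the 8 other inhibitors, activators and partners tested (10 listed), FURIN, a convertase that activates MMP14 and other proproteins, fell by 0.61 at 24 h (edgeR adjusted p = 0.00206). It was at 161 to 184 CPM in sheared and 245 to 292 CPM in static cells, and the call held under all 16 alternatives. RECK, a membrane-anchored inhibitor of MMP14 and other metalloproteases, rose by 1.19 at 24 h (edgeR adjusted p = 0.0105), from 1.92 to 2.71 CPM in static to 3.04 to 8.59 CPM in sheared cells, a call lost under 3 of 16 alternatives.

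**Figure D4:**
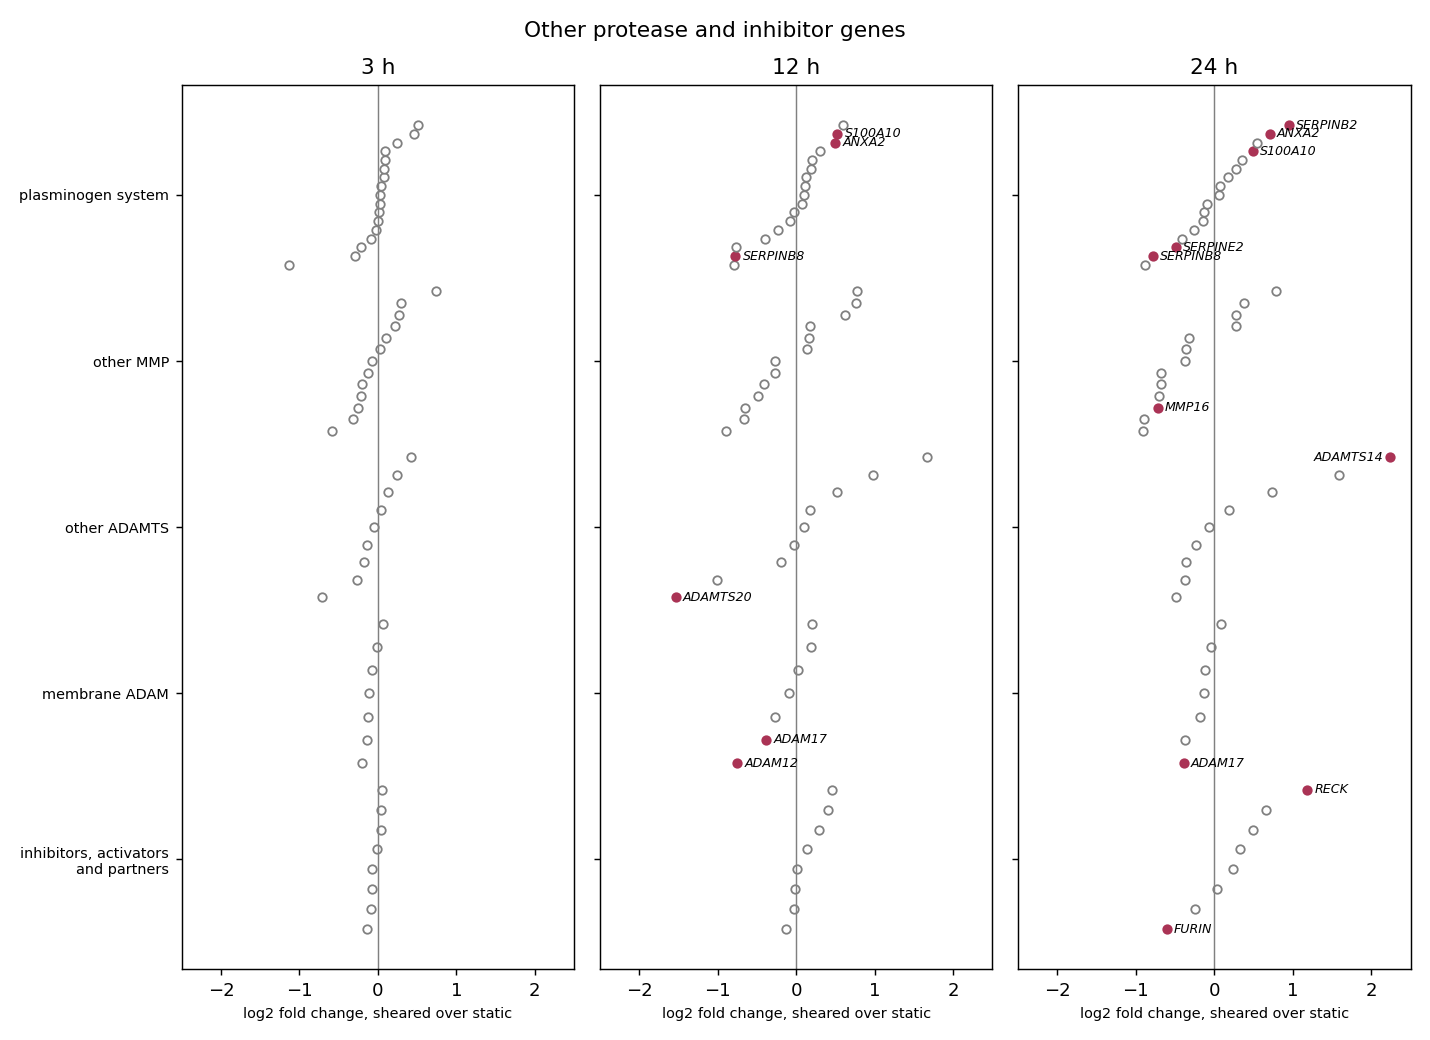
Shear effect for the 54 other tested protease and inhibitor genes in 5 lists, as the log2 fold change of sheared over static cells at 3 h, 12 h and 24 h (1 point per gene, ordered within its list). Filled, named points have an adjusted p below 0.05 (edgeR): none at 3 h, 6 at 12 h and 10 at 24 h.

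From 12 h to 24 h in static cells, 20 of the 54 other genes rose and 4 fell, 44.4% against 32.5% of all genes. Among them were the serine protease inhibitors SERPINE2 (higher by 1.86), SPINT1 (by 1.26), SPINT2 (by 0.95) and SERPINB6 (by 0.64; edgeR adjusted p = 7.48e-07, 1.07e-05, 2.88e-04 and 0.00495). In the same list S100A10 rose by 0.91 and ST14 by 0.67 (edgeR adjusted p = 5.10e-04 and 0.00405). Both come before SERPINB6 by p, so ST14 and SERPINB6 are named beyond the rule. Collagenase-3 (MMP13) rose by 1.43, MMP28 by 1.62 and MMP23B by 1.34 (edgeR adjusted p = 7.28e-04, 6.37e-04 and 1.77e-04), at no more than 25.9 CPM. MMP17 rose by 0.66 (edgeR adjusted p = 0.00286). ADAMTS15 rose by 1.48 and ADAMTS3 fell by 1.41 (edgeR adjusted p = 1.42e-05 and 7.91e-04). ADAM8 rose by 0.88 and ADAM15 by 0.70, while ADAM12 fell by 0.94 (edgeR adjusted p = 0.00222, 0.00376 and 0.00472). FURIN rose by 0.64 over the same interval (edgeR adjusted p = 0.00164), PCSK7 by 0.54 and SDC4 by 0.48 (adjusted p = 0.00610 and 0.0165). RECK fell by 0.86 and TIMP4 by 0.87 (edgeR adjusted p = 0.0212 and 0.0108). The calls of PCSK7, SDC4, RECK and TIMP4 were lost under 1, 4, 3 and 1 of 15 alternatives. RECK is named beyond the rule, since it was called with shear at 24 h. FURIN and RECK were thus called in one direction with time in static cells and in the other with shear at 24 h, 2 contrasts that share the static 24 h libraries. With scaling by total counts only 16 rose and 7 fell.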

How the data were processed

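Cytosolic RNA of 18 PC-3 libraries was sequenced, 3 replicates of static and of sheared cells at each of 3 times. Per the submitters' processing notes, the authors used STAR, GRCh38.p13 and DESeq2, with tool versions, counting program, annotation and strand rule not given in the sources used here. Raw counts as deposited by the authors are whole reads per NCBI Gene ID, without normalization. The authors' deposited tables, 1 per time, hold log2 fold changes with their standard errors and, per the file headers, p-values and adjusted p-values, of which the adjusted ones are quoted. At 3 h count columns were assigned from the time and letter that each shares with a library name of the labels.

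Symbols came from RefSeq for 27745 of 28395 Gene IDs, and positions and exon lengths from GENCODE 29. Genes were kept by filterByExpr (minimum count 10, minimum total 15). The test was edgeR 4.0.16 (R 4.3.3), TMM scaling and its robust quasi-likelihood F test (legacy form), with 9 pools as blocks, a shear effect per time and 6 residual degrees of freedom. Benjamini-Hochberg adjustment was made over all genes at 0.05. The 24 h over 12 h comparisons used the 9 static (14804 genes) or the 9 sheared libraries (14672 genes). The standard error of a log2 fold change is its absolute value divided by the root of F. Per the labels, a replicate number within a time marks 1 pool; the correlation of deviations from group means between libraries of 1 pool lay between 0.0881 and 0.299 (3 h), -0.148 and 0.245 (12 h), and 0.379 and 0.504 (24 h), and between other sheared and static libraries between -0.242 and 0.130, -0.385 and 0.233, and -0.296 and -0.0924. Replicates of each group differed by more than counting error, and no 2 libraries of 1 group were alike.

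The members and lists were chosen with earlier results of these data known. All 9 members are named. Of each other list up to 4 genes past the threshold are named per time by smallest p, and per called member the 3 most alike genes with a mean log2 CPM of at least 1 (prior count 2). Alternatives were other scalings, no filter, DESeq2 1.42.0, no block, single times and leaving out each pair or library. The fits were tested on simulated counts. At 3 h, 12 h and 24 h they recovered 32.8%, 29.9% and 29.9% of 1.5-fold shear changes, and 67.2%, 70.1% and 80.6% of 2-fold ones. From 12 h to 24 h they recovered 29.9% and 79.1% of these in static cells, and 4.48% and 37.3% in sheared cells. A gene that was not called may thus have changed by such amounts. Of the calls on simulated counts, 5 of 137, 10 of 139 and 12 of 149 were false at 3 h, 12 h and 24 h. From 12 h to 24 h 7 of 140 were false in static and 3 of 86 in sheared cells. In each simulated comparison 200 genes were changed, whereas the data had 1647 and 2612 shear calls at 12 h and 24 h. Protein sequences, and promoters of the other 4 members, are not used here. Marker lists of epithelial, androgen-dependent prostate, fibroblast, endothelial and haematopoietic cells and of nuclear-retained RNA were summed; the haematopoietic list lay at 1.18 to 4.38 CPM and the prostate list at 35.9 to 113 CPM.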

Additional observations from a re-analysis of the deposited data

Results flagged for a closer look

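The shear effect on ADAMTS1 differed between times by a test of the difference itself. The log2 fold change of sheared over static cells at 12 h minus that at 3 h was -1.84 (edgeR adjusted p = 0.00168), and at 24 h minus that at 3 h it was -1.88 (edgeR adjusted p = 2.45e-04). The 3 h pools carry another batch date than the later pools, so for these differences time and batch date cannot be told apart. At 3 h all 3 pairs were higher after shear, by 1.75 to 2.30 on the log2 scale. Both differences fell short of the threshold with no replicate block, at -1.84 and -1.77 (adjusted p = 0.163 and 0.0524), and kept it under the other 14 alternatives each.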

How the results depend on the processing

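The rise of ADAMTS1 at 3 h, the fall of MMP1 at 12 h and the 5 rises in static cells from 12 h to 24 h kept their direction and call under every alternative run. Members called at 3 h were 2 with no filter on low counts, 2 with DESeq2, 3 with the 3 h libraries alone and 1 to 2 with a pair left out (1 in the report). Of all genes 450, 304, 1466 and 80 to 446 were called there, against 222. At 12 h they were 3 with total counts only, 2 with no filter and 1 to 2 with a pair left out (1 in the report), with 1866, 2196 and 361 to 2691 of all genes against 1647. At 24 h they were 0 with no replicate block, 0 with the 24 h libraries alone, 3 with total counts only (MMP1, MMP14 and TIMP2, all lower), 3 with no filter (PLAU and PLAT higher, MMP1 lower) and 1 to 3 with a pair left out (2 in the report), with 913, 761, 3192, 3193 and 1550 to 2880 of all genes against 2612. For the effect at 12 h minus 3 h they were 0 with no replicate block, 2 with total counts only, 2 with no filter, 2 with DESeq2 and 1 to 2 with a pair left out, with 29, 257, 588, 402 and 59 to 635 of all genes against 214. For 24 h minus 3 h they were 0 with no replicate block, 2 with no filter, 2 with DESeq2 and 1 to 3 with a pair left out, with 258, 1513, 1157 and 431 to 1209 of all genes against 895. For sheared cells from 12 h to 24 h they were 5 with DESeq2, 1 with the 12 h and 24 h libraries alone, and 0 to 5 with a library left out, with 1271, 9 and 0 to 1354 of all genes against 374. The cause of these shifts was not tested.

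Signs turned only for values that were not called. With total counts only, the log2 fold change was -0.0078 for TIMP2 at 3 h, -0.057 for PLAT at 12 h and -0.14 for TIMP1 at 24 h. With no replicate block it was 0.064 for ADAMTS1 and 0.064 for MMP14 at 24 h minus 12 h, and 0.0031 for MMP1 at 24 h minus 3 h. With a pair left out, the values over all such fits ran from -0.14 to 0.095 for TIMP1 at 12 h, -0.11 to 0.44 for PLAUR at 24 h and -0.0098 to 0.084 for TIMP1 at 24 h. For 12 h minus 3 h they ran from -0.27 to 0.061 for MMP14 and -0.21 to 0.029 for TIMP1. For 24 h minus 12 h they ran from -0.085 to 0.38 for PLAU, -0.0089 to 0.70 for PLAT, -0.24 to 0.30 for ADAMTS1, -0.17 to 0.20 for MMP14 and -0.062 to 0.16 for TIMP1. For 24 h minus 3 h they ran from -0.28 to 0.25 for MMP1, -0.24 to 0.10 for MMP14 and -0.085 to 0.013 for TIMP1. From 12 h to 24 h, with a library left out, they ran from -0.057 to 0.37 for PLAUR in static and -0.13 to 0.87 for ADAMTS1 in sheared cells.

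Total counts only moved the median of all genes by -0.15 at 12 h, -0.16 at 24 h, -0.10 for 12 h minus 3 h, -0.11 for 24 h minus 3 h and -0.19 for both 24 h over 12 h comparisons. It turned 956 rises and 691 falls over all genes at 12 h into 425 and 1441, 1387 and 1225 at 24 h into 782 and 2410, 2499 and 2306 in static cells into 1334 and 3738, and 257 and 117 in sheared cells into 156 and 391. The alternatives for the other protease genes were added after the data were seen. The depth limits TIMP3 (17 reads in all) and, with 62 to 374 counts per library, MMP1.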
